A study of Mus musculus with 6 samples.

Results

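CatSper is the calcium channel of the sperm tail. Its pore is built from 4 different subunits, encoded by Catsper1, Catsper2, Catsper3 and Catsper4, and this account follows the mRNA of those 4 genes through an RNA immunoprecipitation from mouse testis. The members were all probes that the platform annotation names with 1 of these 4 symbols. There were 4 such probes among the 23473 in the table, which names 16390 genes, with 1 probe per member: M200015830 for Catsper1, M200015354 for Catsper2, M200011213 for Catsper3 and M300018829 for Catsper4. All 4 held a value on all 6 arrays, so no filter removed a member.

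The channel lies in the plasma membrane of the principal piece of the flagellum and opens when the sperm cytoplasm becomes alkaline. The calcium that enters drives hyperactivated swimming, and male mice that lack any of the 4 pore subunits are infertile. The genes are read in male germ cells, where many transcripts are made well before the sperm is assembled and are held by RNA-binding proteins until they are translated. MVH, the mouse Vasa homologue encoded by Ddx4, is an RNA helicase found in the germ line and its RNA-rich granules.

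The material was testis of C57/BL6 mice, with no further genotype, treatment or age in the labels. Of the 3 groups, the first was RNA recovered with an anti-MVH antibody (MVH precipitate) and the second was RNA recovered with normal rabbit IgG (IgG precipitate). The third was total RNA with no antibody, labelled WCE. Each group held 2 arrays, and whether they stem from different animals is not stated in the labels. The p-values therefore reflect only the spread between these samples, and that spread may be technical. Values are Cy5 intensity, scaled here to a median of 30 on every array, which changed only IgG array 2, deposited with a median of 20.8. RNA was amplified before labelling, so an intensity gives the share of an RNA within its sample and not the amount recovered. Fewer cells of a type and less RNA per cell cannot be told apart in such samples.

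The arrays held RNA of testis germ cells, along with signal from markers of somatic testis cells. The spermatid genes Prm2 and Tnp1, which package sperm chromatin, had scaled intensities of 65500 to 83700 and of 61000 to 102000. Some other germ cell markers were dim, such as Crem at 11.9 to 30.8 and Dmc1 at 12.8 to 40.8. Markers of macrophages and blood were dim, with a summed intensity over 6 probes of 141 to 168. Those of Sertoli cells summed to 4870 to 10100 over 13 probes and those of Leydig cells to 543 to 3160 over 8. Both of these sums were highest on the IgG arrays. Within a group, log2 values correlated at 0.978 to 0.988 between its arrays over 21241 probes, and the SD of their difference was largest in the IgG precipitate, at 0.60. The 4 CatSper probes lay between 10.4 and 136 times the array median, well clear of the lowest values listed and below Prm2 and Tnp1.

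Catsper4 was the only 1 of the 4 genes that passed the test in any comparison. With MVH its mRNA stood 4.33-fold above its level with IgG. Catsper1, Catsper2 and Catsper3 did not pass in that comparison. None of the 4 passed against total RNA, where MVH stood above total RNA for Catsper4 and IgG stood below it.

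Catsper4 encodes the pore subunit whose probe differed most between the groups. Its scaled intensity was 1469 and 1793 on the MVH arrays, 312 and 449 on the IgG arrays, and 732 and 864 on the total RNA arrays. Both MVH arrays lay above both total RNA arrays, and both of these lay above both IgG arrays. The means were 1630 ± 229 (SD, n = 2) with MVH, 381 ± 96.6 with IgG and 798 ± 93.3 in total RNA. The log2 difference between MVH and IgG was 2.12 ± 0.30 (SE, n = 2 per group, adjusted p = 0.0166 in limma), with a 95% confidence interval of 1.44 to 2.79, or 2.71-fold to 6.94-fold. It was larger than that of 99.5% of the 21574 probes tested, and 109 probes had a larger rise. In the same comparison 3.82% of all probes passed as higher with MVH, and 1 of the 4 CatSper genes did. The median difference of all probes was 0.07.

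**Figure D1:**
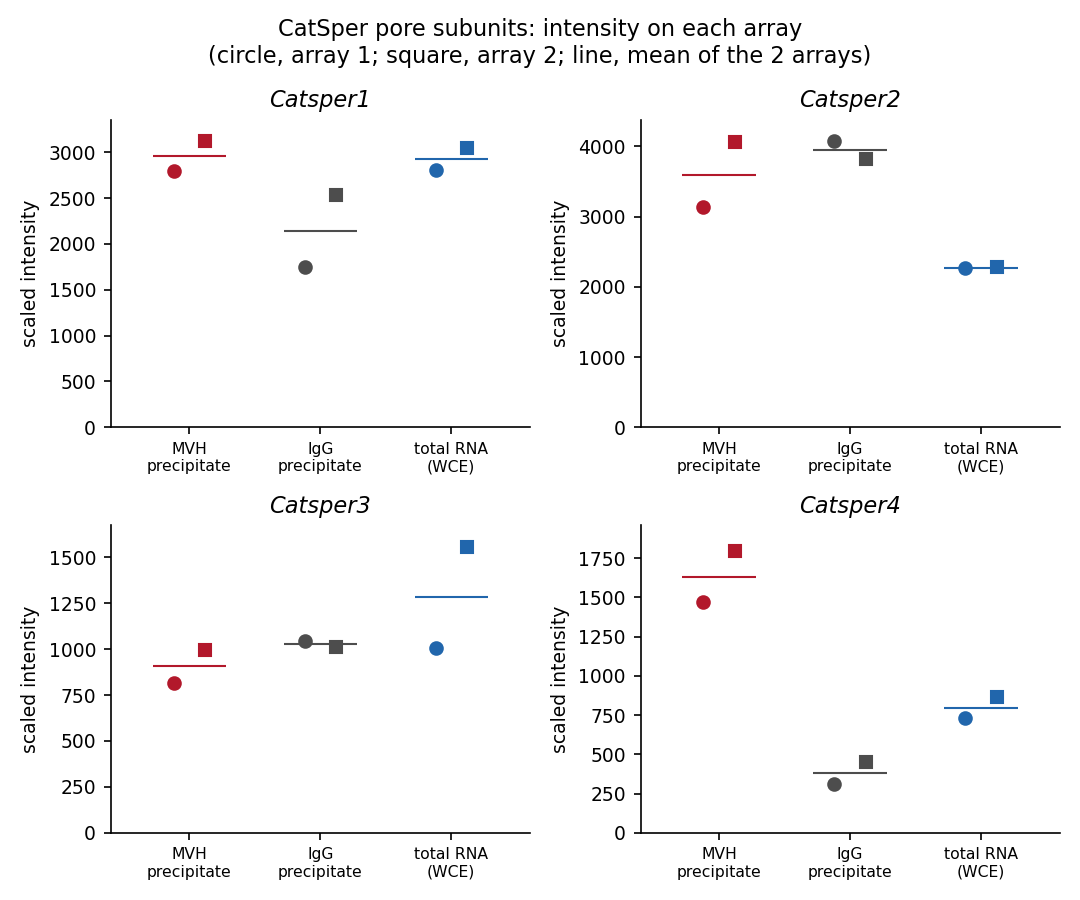
Scaled intensity (array median 30, linear axis from 0) of the 4 pore subunit genes on each of the 6 arrays, with circles for array 1, squares for array 2 and a line at the mean of each group. For Catsper4 the MVH arrays read 1469 and 1793 and the IgG arrays 312 and 449, whereas for Catsper3 the 3 groups lie close together.

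The Catsper4 difference between the precipitates was made of 2 steps of similar size around total RNA. MVH stood above total RNA by 1.03 ± 0.30 on the log2 scale (2.04-fold, 95% interval 1.28-fold to 3.27-fold, limma adjusted p = 0.334, n = 2 per group). IgG differed from total RNA by -1.09 ± 0.30 (limma adjusted p = 0.113, n = 2 per group), with an interval of -1.77 to -0.41. Neither step passed the threshold, although the unadjusted p-values were 0.00761 and 0.00565 in limma. Few probes passed in these comparisons: 0.0138% of 21793 for MVH against total RNA and 0.00934% of 21413 for IgG against total RNA. The order of Catsper4, with both MVH arrays above both total RNA arrays and these above both IgG arrays, was shared by 5.76% of the 21241 probes listed on every array. The comparisons share arrays, so the steps are not independent of the difference between the precipitates. The step between IgG and total RNA passed when the dimmest 25% of probes were left out (limma adjusted p = 0.0443), with an offset of 4 before log2 (0.0326) or with a variance trend (0.0373). Over all probes the count past the threshold in that comparison rose from 2 to 1183, 1087 and 1253 in these settings.

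The Catsper4 call depended on which arrays entered the fit, and its size moved with them while staying positive. The log2 difference between MVH and IgG ranged from 1.85 to 2.38 over the 16 alternative settings, with adjusted p-values between 0.000689 and 0.103, and it passed in 11 of them. It was 1.85 without IgG array 1, 2.38 without IgG array 2, 2.26 without MVH array 1 and 1.97 without MVH array 2. It narrowly missed the threshold when only the 4 precipitate arrays were fitted (adjusted p = 0.0533), without total RNA array 1 or 2 (0.0533 each) and without MVH array 1 (0.054), and missed it without MVH array 2 (0.103). A permutation of 2 against 2 arrays alone cannot go below p = 0.333.

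**Figure D2:**
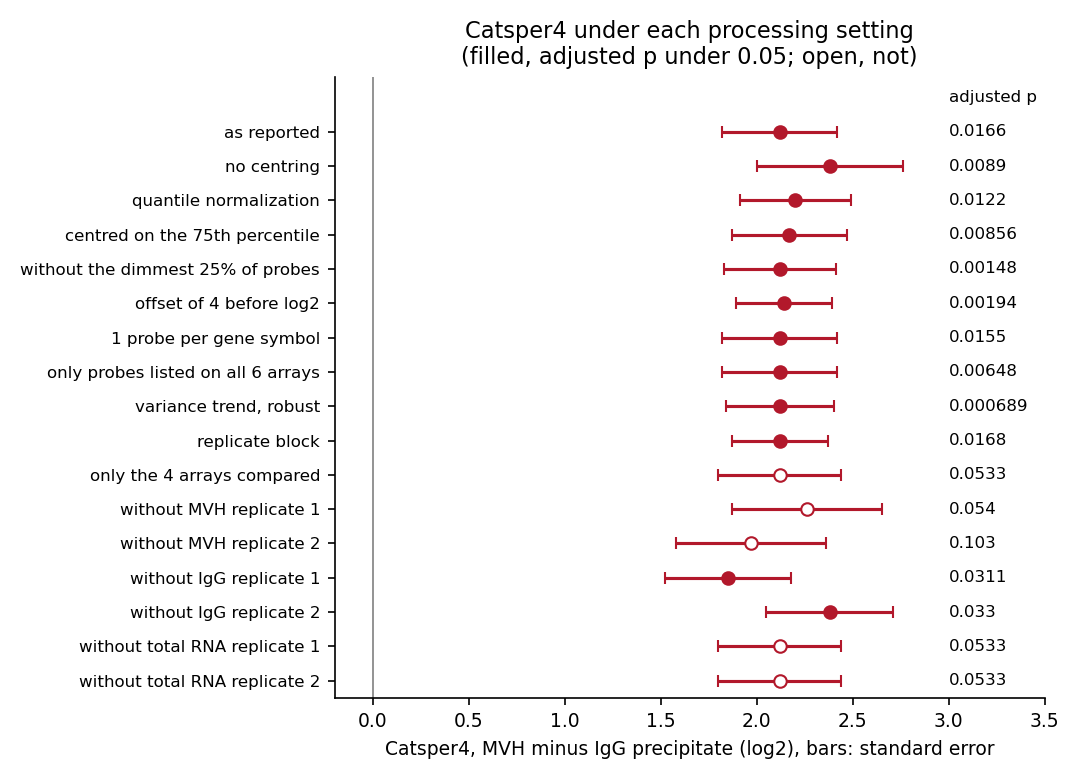
Log2 difference of Catsper4 between the MVH and IgG precipitates as reported and under 16 other settings (points, bars show the standard error, filled where the adjusted p is under 0.05), with the adjusted p at the right. The estimates lie between 1.85 and 2.38, and the 5 open points are fits that left out arrays.

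Catsper1, the subunit first described and known for a histidine-rich cytoplasmic end, was lowest with IgG. Its scaled intensity was 2798 and 3127 on the MVH arrays, 1753 and 2538 on the IgG arrays and 2806 and 3051 on the total RNA arrays. The MVH and total RNA arrays interleaved, and both lay above the IgG arrays without overlap. MVH differed from IgG by 0.49 ± 0.29 on the log2 scale (limma adjusted p = 0.337, n = 2 per group), with a 95% interval of -0.17 to 1.15. The interval reaches from 0.888-fold to 2.21-fold and so includes no difference. Against total RNA the difference was 0.02 ± 0.29 for MVH (limma adjusted p = 0.998) and -0.47 ± 0.29 for IgG (0.432). The IgG arrays had nearly equal deposited intensities for this gene, 1753 and 1759.7, and moved apart only through the scaling of IgG array 2. With the deposited values left unscaled, MVH differed from IgG by 0.75.

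Catsper2, another pore subunit, stood higher in both precipitates than in total RNA. It read 3132 and 4064 on the MVH arrays, 4081 and 3821 on the IgG arrays and 2262 and 2283 on the total RNA arrays. All 4 precipitate arrays lay above both total RNA arrays, an order seen for 5.38% of the probes listed on every array, and the 2 precipitates overlapped. The log2 difference from total RNA was 0.65 ± 0.27 for MVH (1.57-fold, limma adjusted p = 0.53) and 0.80 ± 0.27 for IgG (1.74-fold, limma adjusted p = 0.174), neither past the threshold. Between MVH and IgG it was -0.15 ± 0.27 (limma adjusted p = 0.788), with a 95% interval of -0.77 to 0.47. That sign turned to 0.12 with no centring and to 0.04 without MVH array 1. In the RefSeq annotation of assembly GRCm38.p6 Catsper2 overlaps Pdia3, a disulfide isomerase gene on the opposite strand, and no other member overlaps a gene. Pdia3, chosen here after its values were seen, read 357 and 599 on the MVH arrays, 324 and 190 on the IgG arrays and 353 and 344 on the total RNA arrays, so it did not share the order of Catsper2. The sequence of the probes was not used here.

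Catsper3, the remaining pore subunit, gave no difference past the test. It read 818 and 995 on the MVH arrays, 1044 and 1012 on the IgG arrays and 1006 and 1559 on the total RNA arrays. Total RNA array 2 was high, and the MVH arrays lay just below the other 4. MVH differed from IgG by -0.19 ± 0.31 on the log2 scale (limma adjusted p = 0.755, n = 2 per group) and from total RNA by -0.47 ± 0.31 (0.754). IgG differed from total RNA by -0.28 ± 0.31 (0.664), which became 0.03 without total RNA array 2. The sign between MVH and IgG turned to 0.08 with no centring. The 95% interval of MVH against IgG was -0.88 to 0.50.

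**Figure D3:**
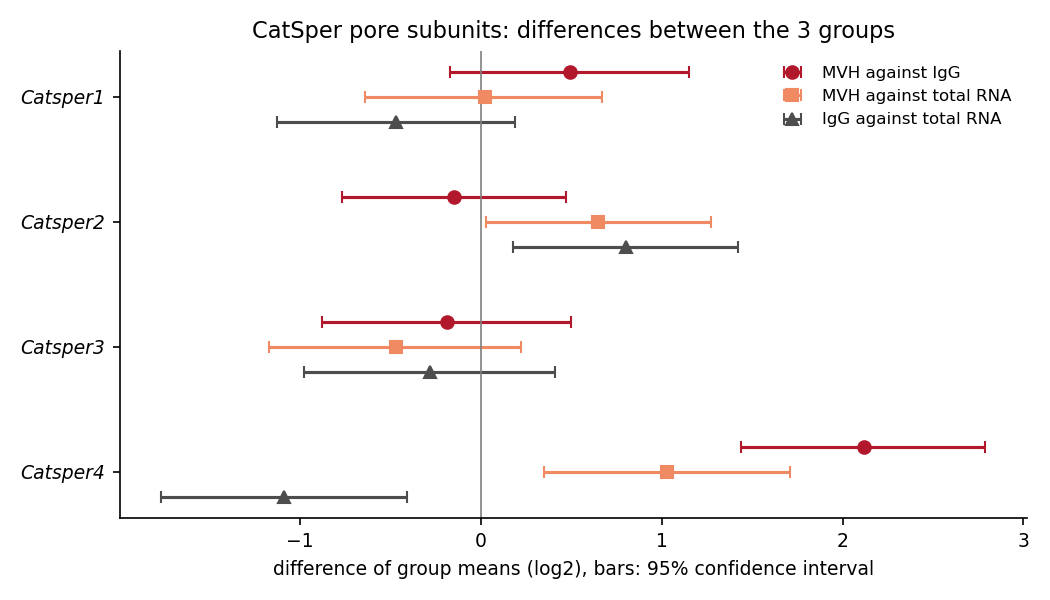
Log2 difference of group means for the 4 pore subunit genes in the 3 comparisons (points, n = 2 arrays per group) with the 95% confidence interval from limma (bars). Catsper4 is at 2.12 for MVH against IgG, 1.03 for MVH against total RNA and -1.09 for IgG against total RNA, and the MVH against IgG intervals of the other 3 genes include 0.

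Groups of 2 arrays often lie apart without any test being passed, and the members' counts of this kind are read against all probes. For MVH against IgG, 2 of the 4 members lay above without overlap and 1 below, where 29.9% and 23.8% of all probes did. For MVH against total RNA it was 2 above and 1 below, where 18.7% and 21.6% of all probes did. For IgG against total RNA it was 1 above and 2 below, where 20% and 29.6% of all probes did.

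Set against each other within each array, the observed shifts of the pore subunits differed in size. With 2 against 2 arrays the permutation test below could not pass the threshold for any pair. The log2 difference between MVH and IgG was larger for Catsper4 than for Catsper1 by 1.63, than for Catsper2 by 2.26 and than for Catsper3 by 2.30. These differences are taken within an array, so centring an array does not move them. In each of these 3 pairs both MVH arrays lay apart from both IgG arrays. The same held for Catsper2 against Catsper1 and for Catsper3 against Catsper1, so it was not particular to Catsper4. The differences of Catsper2 and Catsper3, neither past the test, lay 0.04 apart (Catsper3 minus Catsper2, -0.04). Over all 6 pairs the exact two-sided permutation test gave p = 0.333 for 5 pairs, the smallest that 2 against 2 arrays allow, and 0.667 for Catsper3 against Catsper2 (0.4 and 0.667 after Benjamini-Hochberg adjustment over the 6 pairs). No fit across all probes was made for the differences between members, so they are given as values.

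**Figure D4:**
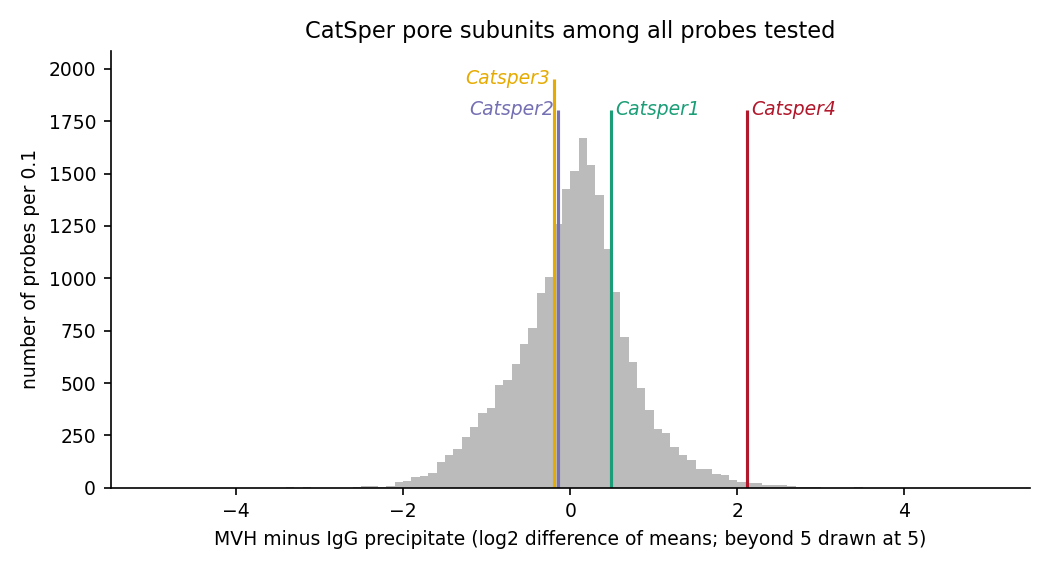
Number of probes by log2 difference between the MVH and IgG precipitates (grey bars, 21574 probes tested, bins of 0.1) with the 4 pore subunit genes as vertical lines. Catsper1, Catsper2 and Catsper3 lie in the body of the distribution at 0.49, -0.15 and -0.19, and Catsper4 lies in its upper tail at 2.12.

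Other genes had nearly the same course over the 6 arrays as each member. Likeness was measured as the root mean square distance of the log2 values over the 6 arrays, after each probe was centred on its own mean, among 14792 other named probes. For Catsper4 the closest were Dgka, a diacylglycerol kinase gene, at 0.123, the exonuclease gene Isg20 at 0.144 and the mitochondrial transhydrogenase gene Nnt at 0.146, against a median distance of 0.905. For Catsper1 they were the ribosomal protein gene Rpl30 (0.0364), Abraxas2 (0.0461) and Fam177a (0.0538). For Catsper2 they were Ccdc25 (0.0585), the ciliary transport gene Ift80 (0.0814) and Crebzf (0.0835). For Catsper3 they were Zfp488 (0.0446), the mitochondrial ribosomal gene Mrps17 (0.0564) and Mylpf (0.0626). Zfp488 was dim, with a geometric mean intensity of 6.8 over the 6 arrays. No member was among the 3 nearest genes of another, and the smallest distance between members was 0.364, between Catsper1 and Catsper3. That is not far below the median distance over all candidates, 0.427 for Catsper1 and 0.436 for Catsper3.

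The pore works only within a larger complex, and 9 of 13 listed auxiliary or partner genes had a probe. Catspere1, Catspere2, Tmem262 and Tmem249 were not analysed here. No probe of the 9 passed in any comparison, with 3 of 9 at an unadjusted limma p under 0.05 for MVH against IgG, all higher with MVH. The 3 were C2cd6, Catsperg2 and Lrrc52, the last a partner of the sperm potassium channel and not a CatSper subunit. Of all probes, 12.6% were higher and 12.8% lower at that unadjusted p. The median difference of the 9 was 0.37 for MVH against IgG, beside 0.07 for all probes, and -0.05 against total RNA, beside -0.02. The first of these medians moved with single arrays, to 0.71 without MVH array 1, 0.21 without MVH array 2, 0.69 without IgG array 1 and 0.26 without IgG array 2. With MVH, 4 of the 9, Lrrc52 among them, lay above IgG without overlap and 0 below, where 29.9% and 23.8% of all probes did.

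The subunits with large extracellular parts gave mixed values. Catsperd read 954 and 1088 on the MVH arrays, 696 and 623 on the IgG arrays and 631 and 890 on the total RNA arrays, a log2 difference between MVH and IgG of 0.63 ± 0.29 (limma adjusted p = 0.213). Catsperb read 492 and 743, 609 and 1249, and 594 and 657, with IgG array 2 apart from the rest and a difference of -0.53 ± 0.39 (adjusted p = 0.441 in limma). Catsperg2 was dim, at 47.9 and 55.4 on the MVH arrays, 36.7 and 27.3 on the IgG arrays and 43.2 and 39.5 on the total RNA arrays, a difference of 0.70 ± 0.28 (limma adjusted p = 0.158). Its close copy Catsperg1 was dimmer still, at 2.2 to 9.6, so that no direction can be read, and probes of the 2 copies may share signal.

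The cytoplasmic subunits Catsperz and Efcab9 and the transporter Slco6c1 showed no difference past the test. Catsperz was very bright in every group, at 15790 and 15110 on the MVH arrays, 17470 and 14790 on the IgG arrays and 16640 and 21800 on the total RNA arrays, and differed between MVH and IgG by -0.06 ± 0.28. Efcab9, an EF-hand protein that senses calcium together with Catsperz, read 1830 and 2176 on the MVH arrays, 2169 and 1155 on the IgG arrays and 1953 and 2208 on the total RNA arrays. Its difference of 0.33 ± 0.34 (limma adjusted p = 0.596) rested on IgG array 2 and turned to -0.12 without it. Slco6c1, an organic anion transporter found with the channel, read 1537 and 2445, 1616 and 1387, and 1890 and 2063, a difference of 0.37 ± 0.31.

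C2cd6, a C2-domain protein needed to bring the channel to the flagellum, differed most from total RNA among the 9. It read 1686 and 2550 on the MVH arrays, 728 and 1189 on the IgG arrays and 417 and 562 on the total RNA arrays, so that the 3 groups did not overlap. MVH stood above total RNA by 2.10 ± 0.35 on the log2 scale (limma adjusted p = 0.146) and above IgG by 1.16 ± 0.35 (0.0795). IgG stood above total RNA by 0.94 ± 0.35 (0.21), the opposite side from Catsper4. Without the dimmest 25% of probes, with an offset or with a variance trend C2cd6 passed against total RNA (limma adjusted p = 0.0141, 0.0239 and 0.00722) and against IgG (0.0302, 0.0261 and 0.0249). Many more probes on the array also passed in those settings, with the counts in the closing section.

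Lrrc52, the partner of the sperm potassium channel and not a CatSper subunit, resembled Catsper4 in its low IgG values. It read 648 and 627 on the MVH arrays, 307 and 396 on the IgG arrays and 712 and 778 on the total RNA arrays. IgG differed from total RNA by -1.10 ± 0.27 (limma adjusted p = 0.0949) and MVH from IgG by 0.87 ± 0.27 (0.085), while MVH differed from total RNA by -0.22 ± 0.27 (0.93). The first 2 of these passed without the dimmest 25% of probes (limma adjusted p = 0.0342 and 0.0439), and also with an offset (0.0244 and 0.0255) or a variance trend (0.0297 and 0.043). As for C2cd6, many more probes on the array passed in those settings too.

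**Figure D5:**
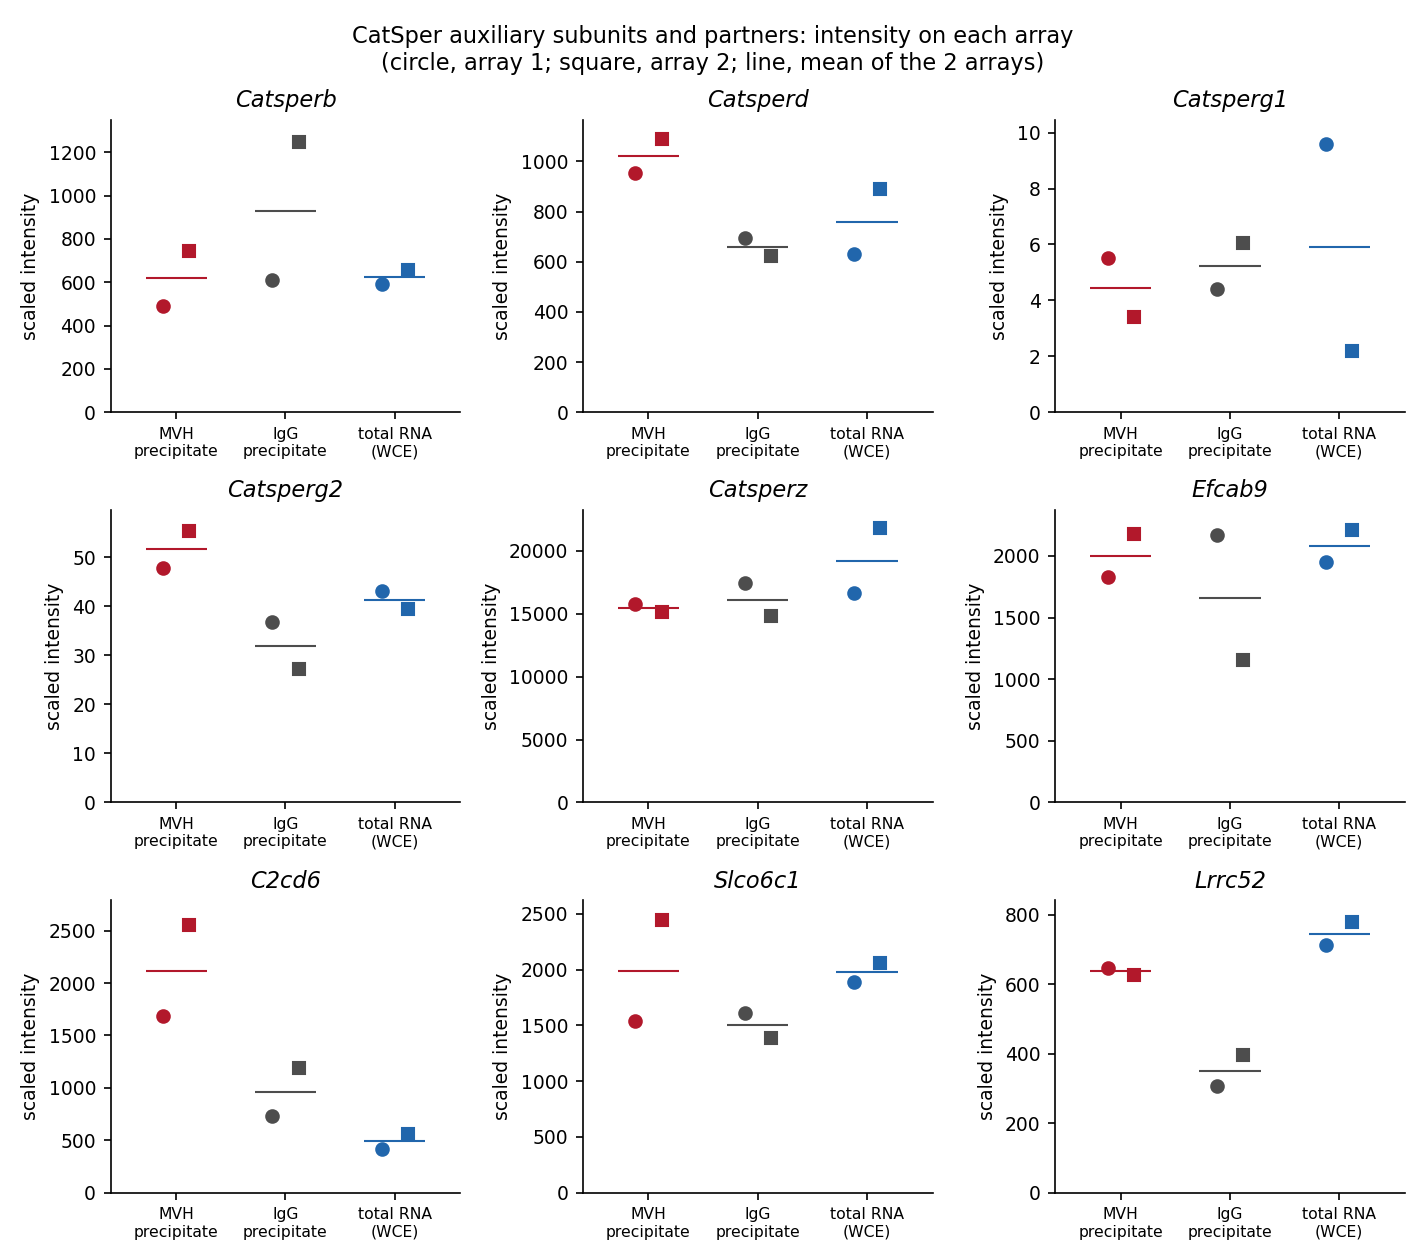
Scaled intensity (array median 30, linear axes from 0) of the 9 auxiliary or partner genes on each array, with circles for array 1, squares for array 2 and a line at the group mean. C2cd6 steps up from total RNA over IgG to MVH, Lrrc52 is low on both IgG arrays at 307 and 396, and Catsperz stays between 14790 and 21800.

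Genes that act around the channel were counted in the same fit between MVH and IgG. Of 18 tested probes for sperm pH, potassium and calcium transport, 3 were higher and 0 lower with a median log2 difference of 0.29, beside 3.82% and 4.15% of all probes. The 3 were Atp1a4, the sodium pump subunit of sperm (3.89 ± 0.46), Abhd2, the progesterone-sensitive lipase that acts on CatSper in human sperm (1.96 ± 0.31), and Kcnu1, the sperm potassium channel (1.10 ± 0.28). Atp1a4 was dim, at 60.4 and 75.3 on the MVH arrays, 7.2 and 2.88 on the IgG arrays and 28.5 and 16.3 on the total RNA arrays. Its IgG values lie near the lowest intensities listed, so the size of its difference is uncertain. Kcnu1 read 150 and 181 on the MVH arrays, 85.3 and 69.2 on the IgG arrays and 83.5 and 103 on the total RNA arrays. Abhd2 read 1290 and 1310, 412 and 271, and 784 and 1080, the same order of groups as Catsper4.

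Genes of cAMP and calcium signalling in the sperm tail gave 5 probes higher and 0 lower of 30, beside 3.82% and 4.15% of all probes. Their median was 0.25 and became 0.54 without MVH array 1. Akap3, an anchoring protein of the fibrous sheath (2.08), Prkacb, a catalytic subunit of protein kinase A (1.61), the calcium-binding sheath protein gene Cabyr (1.36) and the testis kinase gene Tssk1 (1.08) were the largest. Of 39 probes for other calcium channels and their relatives, 2 were higher and 2 lower, near the share of all probes, with a median of -0.02 that became 0.16 without IgG array 1. Trpc1 (1.62) and Orai2 (1.56) were higher, and Trpm4 (-1.50) and Cacna1b (-1.30) lower. Orai2 and Cacna1b were dim, at 3.03 to 14.9 and at 3.5 to 10.7. None of these 3 lists had a probe past the threshold against total RNA.

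Of the markers of other testis cells, those of Leydig cells and of peritubular and vascular cells were called lower more often than all probes. In this comparison of MVH with IgG, 3.82% of all probes were higher and 4.15% lower. Leydig cell markers, genes of androgen synthesis, were lower with MVH in 5 of 8 probes and higher in 0, with a median of -1.69, and all 8 were listed on every array, of which Star, Hsd17b3 and Hsd11b1 were dim at 2.4 to 12.4. Their summed intensity was 574 and 543 on the MVH arrays, 3160 and 2020 on the IgG arrays and 712 and 1190 on the total RNA arrays. The IgG arrays thus held the most of this signal and the least of Catsper4, and the part of this in the Catsper4 result was not tested. Of 7 probes for peritubular and vascular cells, 0 were higher and 2 lower, with summed intensities of 572 and 373, 3190 and 1480, and 442 and 534. Nearly all of these sums was 1 gene, the smooth muscle actin gene Acta2, at 502 and 295, 3040 and 1390, and 370 and 463. The median difference of the 7 was -0.24, and 3 of them were positive. Sertoli cell markers had 0 higher and 1 lower of 13, with a median of 0.04 that became -0.36 without IgG array 2. At an unadjusted limma p under 0.05, 0 of the 13 were higher and 4 lower, beside 12.6% and 12.8% of all probes. Without overlap 3 lay above IgG and 6 below, beside 29.9% and 23.8%. Their summed intensity was 5030 and 4870 on the MVH arrays, 10100 and 8020 on the IgG arrays and 6500 and 6970 on the total RNA arrays. This sum was led by bright probes such as Clu (3280 to 5910) and Amhr2 (462 to 2570), the 1 called gene. Of the 13 differences, 7 were positive and 6 negative. Macrophage and blood markers had 0 and 0 of 6 in limma, with 1 higher and 0 lower at an unadjusted p under 0.05, beside 12.6% and 12.8% of all probes. The counts past the threshold for Sertoli cells and for macrophages and blood lie near the share of all probes. The unadjusted Sertoli count and sum were nevertheless lower with MVH than with IgG.

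Germ cell markers gave a few calls, beside 3.82% higher and 4.15% lower of all probes. They went in either direction for spermatids and spermatocytes and only lower for spermatogonia. Round spermatid and acrosome markers had 2 higher and 1 lower of 21, with a median of 0.45. Of these 21 probes, 17 were positive, and 11 lay above IgG without overlap and 1 below, where 29.9% and 23.8% of all probes did. At an unadjusted limma p under 0.05, 7 were higher and 1 lower, beside 12.6% and 12.8% of all probes. The part of these markers in the Catsper4 result was not tested. Their summed intensity was 361000 and 473000 on the MVH arrays, 323000 and 420000 on the IgG arrays and 385000 and 437000 on the total RNA arrays. The groups overlapped in this sum, which is led by very bright probes such as Prm1, Prm2 and Tnp1 and says little about the other markers. The glycolytic gene Pgk2 (2.13) and the acrosomal gene Zpbp (1.14) were higher and Tex101 (-1.70) lower. Spermatocyte markers had 2 higher and 1 lower of 14, with a median of -0.06 that ranged from -0.26 to 0.16 with 1 array left out. Spermatogonium markers had 0 higher and 2 lower of 11, Nanos3 (-1.80) and Sohlh1 (-1.40). Their median was 0.01 and became -0.49 without MVH array 2 and -0.30 without IgG array 1. Of the 11 probes, 6 were positive, and 2 lay above IgG without overlap and 5 below, beside 29.9% and 23.8% of all probes. Unadjusted limma p-values under 0.05 were found for 1 higher and 3 lower, beside 12.6% and 12.8%. Their summed intensity, led by bright probes such as Nanos3, was 3870 and 4030 on the MVH arrays, 11100 and 7740 on the IgG arrays and 4820 and 5180 on the total RNA arrays. The counts of all these lists moved with the settings. They fell to 0 with only the 4 arrays compared and without MVH array 2 or either total RNA array, where no probe on the array passed. Without MVH array 1 a single listed probe passed, in the transport list. Higher counts rose from 2 to 5 for round spermatid markers without the dimmest 25% of probes or with an offset and to 6 with a variance trend, and from 3 to 6 for the transport list with an offset. Calls over all probes, in either direction, rose as well. They went from 1719 to 3116 with that filter, to 2955 with an offset and to 3142 with a variance trend. Leaving out the centring raised the median of all probes to 0.34 and took every list's median up with it, so that of the other calcium channels became 0.25.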

How the data were processed

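The deposited table holds 1 linear Cy5 intensity per probe and array. Each array carried 1 sample, amplified and labelled through aminoallyl aRNA, per the labels' protocols. Those protocol fields also hold a passage on liver tumours and microRNA labelling that does not match these samples, so the labelling method is less certain. The authors' scanner, background correction and scaling were not given in the sources used, nor was their reason to leave a cell blank. Precision is limited by the number of arrays. Symbols came from the platform annotation and were updated through RefSeq synonyms (GRCm38.p6, names and overlaps only): 12622 were current, 3947 updated, 62 unmatched and 6842 probes unnamed. Intensities were converted to log2, centred on each array's median and shown at an array median of 30. limma 3.58.1 in R 4.3.3 was fitted to all 6 arrays and all probes, with 3 residual and 5.77 prior degrees of freedom. A comparison was tested where its 4 arrays held values, with Benjamini-Hochberg adjustment over all probes tested (threshold 0.05). Alternatives in centring, filtering, offset, variance model, pairing and arrays are given in the closing section. The steps were tested on simulated data. Plots used matplotlib 3.10.9. The text names the members, the auxiliary genes with a probe, up to 4 called genes per other list and direction, and the 3 nearest genes of each member. Members and lists were chosen with earlier results of these data known.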

Additional observations from a re-analysis of the deposited data

How the results depend on the processing

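Each of the 4 CatSper genes was refitted in the 3 comparisons under 16 alternatives. The Catsper4 difference between MVH and IgG stayed positive in all 16, at 2.12 with only the 4 arrays compared (no longer past the threshold) and at 1.85 to 2.38 when 1 array was left out. For IgG against total RNA, Catsper4 passed at -1.09 without the dimmest 25% of probes, at -1.11 with an offset of 4 and at -1.09 with a variance trend. Signs turned for values near 0: with no centring Catsper2 and Catsper3 differed between MVH and IgG by 0.12 and 0.08, and with 1 array left out Catsper2 ranged from -0.33 to 0.04 there, Catsper1 from -0.06 to 0.10 for MVH against total RNA and Catsper3 from -0.60 to 0.03 for IgG against total RNA. The cause was not tested.

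Of the 9 auxiliary or partner genes, 0 passed as reported. Without the dimmest 25% of probes, with an offset or with a variance trend, 2 passed for MVH against IgG (C2cd6 and Lrrc52), 1 for MVH against total RNA (C2cd6) and 1 for IgG against total RNA (Lrrc52). The counts over all probes rose in these 3 settings as well, so such calls were not particular to the 9 genes. For MVH against IgG they went from 1719 to 3116, 2955 and 3142. For MVH against total RNA they went from 3 to 123, 92 and 180. For IgG against total RNA they went from 2 to 1183, 1087 and 1253.

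Over all probes, 1719 passed for MVH against IgG, 3 for MVH against total RNA and 2 for IgG against total RNA. In that order, values left uncentred gave 823, 19 and 5, a filter on the dimmest 25% gave 3116, 123 and 1183, an offset gave 2955, 92 and 1087, a variance trend gave 3142, 180 and 1253, and a fit of only the 4 arrays compared gave 0, 6 and 1. Probes listed on all 6 arrays gave 30 and 469 in the last 2 comparisons, centring on the 75th percentile 8 and 211, and quantile normalization 141 for IgG against total RNA. With 1 array left out the counts ranged from 0 to 1327, 0 to 10 and 0 to 58, where a lone array is assumed to vary like the other groups. Fits with fewer arrays have fewer degrees of freedom.

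Arrays of different groups share numbers 1 and 2 with no stated link, and the differences between numbered arrays correlated weakly across groups, at 0.101 to 0.157. With the number as a replicate block Catsper4 differed between MVH and IgG by 2.12 (limma adjusted p = 0.0168), no CatSper pore gene changed its call, 1 auxiliary gene passed (C2cd6, MVH against IgG, limma adjusted p = 0.0328), and the counts over all probes were 2263, 4 and 150. The signal of dim probes such as Catsperg1 limits what can be read from them.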
